A study of Arabidopsis thaliana with 24 samples.

Results

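The WRKY transcription factors are a plant family of DNA-binding proteins, and 47 of their genes were taken by locus identifier from the table of 32833 genes of this series. Membership was set by locus and not by a threshold on any value, but the family was taken up, and the pathway list below drawn up, with earlier results of these data known. All 47 were found in the table. A filter on low values (10 or more normalized counts in 3 or more libraries) left 41 of them for testing. A level of 3 reads, set as the floor of detection, was exceeded in all 24 libraries by 37 members, in some libraries by 8 and in none by 2. Another 22 genes that RefSeq names WRKY were not on the list, and 3 of them passed the same filter.

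RNA sequencing gave the steady-state level of transcripts in leaves of Col-0, the reference accession of Arabidopsis thaliana, at an age of 4 to 5 weeks. Every plant, controls included, carried a drop of 0.3% agarose for 15 min between a local and a systemic leaf. The drop held water or 50 mM DPI (diphenyleneiodonium), which blocks flavin-containing enzymes, among them the NADPH oxidases at the plasma membrane that produce superoxide. The local leaf then received 8 min of high light of 2000 µmol m−2 s−1 or no light stress, and the local leaf and the untreated, distant systemic leaf were sampled. This gave 8 groups of 3 libraries, named here by drop (water or DPI), light (control or high light) and leaf (local or systemic). Control leaves were taken at the start of the light period and high light leaves at its end. High light leaves were therefore sampled later after the drop was placed than control leaves, with water and with DPI. Light responses and their interactions include this difference in time, and its part in them was not tested. Each library was a pool of leaves, so that p-values measure the spread between pools.

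WRKY proteins bind the W box, a promoter element with the core TTGAC followed by C or T, through a zinc-binding domain. They are sorted by the number and type of these domains into group I, groups IIa to IIe and group III. Many are induced within minutes by pathogens, wounding, reactive oxygen species and salicylic acid, several are activated by MAP kinases, and many WRKY genes are themselves regulated by WRKY proteins. In leaves the family is best known for immunity and for the onset of senescence.

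Because WRKY proteins can act on WRKY genes, the 250 bases before the annotated transcript start were read for all 47 members from the RefSeq TAIR10.1 genome. The motifs TTGACC and TTGACT were searched on both strands, and every match was counted, also where matches shared a base. At least 1 match was found in 17 members (36.2%), against 28.4% of the promoters of 27443 protein-coding genes in the table. At least 2 matches were found in 10 members (21.3%), against 6.18% of these genes. The 16 members that light raised in the local leaf under water held a match in 5 cases (31.2%), and the other 25 tested members in 9 (36%). Some windows with a match lay mostly in exons of other genes: WRKY25 with 244 of 250 bases, WRKY45 with 208 and WRKY26 with 195. WRKY25 is among the 5 light-raised cases and WRKY45 among the 10 with at least 2 matches. Such overlap was not counted for the promoters of genes outside the family. Promoters of 5 light-raised members are shown, 3 with a pair of matches and 2 with none. Letters are lower case and read 5′ to 3′ on the strand of the gene, with matches in capitals (GGTCAA and AGTCAA are the same motifs on the other strand).
WRKY33 (chr2:16107985-16108234, plus strand): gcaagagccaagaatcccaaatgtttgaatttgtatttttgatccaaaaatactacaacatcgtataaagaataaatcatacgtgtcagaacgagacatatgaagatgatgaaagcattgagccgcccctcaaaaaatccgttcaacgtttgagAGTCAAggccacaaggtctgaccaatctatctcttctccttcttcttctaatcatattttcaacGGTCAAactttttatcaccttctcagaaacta
WRKY15 (chr2:9924636-9924885, plus strand): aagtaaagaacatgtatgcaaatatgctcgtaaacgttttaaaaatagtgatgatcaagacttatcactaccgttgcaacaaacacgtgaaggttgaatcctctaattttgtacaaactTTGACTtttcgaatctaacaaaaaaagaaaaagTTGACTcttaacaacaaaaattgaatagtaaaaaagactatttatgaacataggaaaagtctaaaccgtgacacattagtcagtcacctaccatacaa
WRKY53 (chr4:12393983-12394232, minus strand): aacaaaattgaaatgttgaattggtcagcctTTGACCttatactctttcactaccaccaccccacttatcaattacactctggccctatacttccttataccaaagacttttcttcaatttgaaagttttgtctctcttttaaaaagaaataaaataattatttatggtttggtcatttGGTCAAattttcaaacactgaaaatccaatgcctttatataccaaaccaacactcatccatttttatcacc
WRKY18 (chr4:15382527-15382776, plus strand): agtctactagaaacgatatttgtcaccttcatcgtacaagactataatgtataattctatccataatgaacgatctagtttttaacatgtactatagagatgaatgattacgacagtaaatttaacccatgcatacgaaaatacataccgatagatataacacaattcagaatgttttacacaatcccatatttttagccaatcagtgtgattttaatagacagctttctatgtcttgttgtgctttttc
WRKY40 (chr1:30383311-30383560, plus strand): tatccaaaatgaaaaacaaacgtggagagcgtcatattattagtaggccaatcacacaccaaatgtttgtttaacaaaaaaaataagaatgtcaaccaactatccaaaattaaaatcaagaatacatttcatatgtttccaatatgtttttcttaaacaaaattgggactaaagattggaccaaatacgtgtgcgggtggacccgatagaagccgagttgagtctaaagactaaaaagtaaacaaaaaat
The matches began 96 and 32 bases before the start in WRKY33, 131 and 98 in WRKY15, and 219 and 71 in WRKY53. The WRKY40 window held the 5-letter core TTGAC once, followed by another base, and the WRKY18 window did not hold it. All 5 genes were raised by light under water, with or without a match in this window.

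Members differed widely in level. Per kilobase of the longest annotated transcript, WRKY70 was highest in the unstressed local leaf with water, at 711 ± 25.8 normalized counts per kb (SD, n = 3), and WRKY11 followed at 391 ± 23.9. WRKY15 (278 ± 15.6), WRKY1 (270.0 ± 8.91) and WRKY33 (249 ± 21.9) came next with overlapping ranges. After high light in the same leaf the order was WRKY33 (2129 ± 68.5), WRKY70 (1869.7 ± 29.0, with no overlap of the libraries) and WRKY40 (1089 ± 58.5). With DPI and no light stress, WRKY70 was at 1963 ± 69.7, WRKY33 at 716 ± 29.9 and WRKY11 at 628 ± 2.39. The number of members with at least 100 normalized counts per kb was 11 in each water control group, 15 in each high light group with water, 18 and 17 in the local and systemic DPI controls, and 16 in each DPI group with high light.

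**Figure D1:**
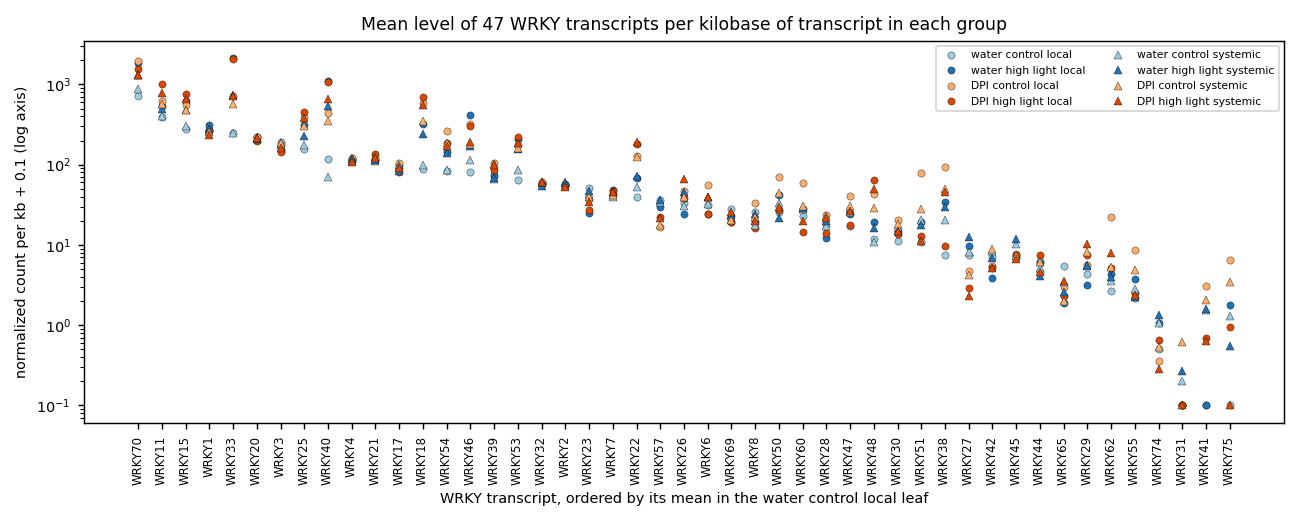
Mean normalized count per kilobase of transcript (log axis, 0.1 added) of the 47 members in the 8 groups, ordered by the water control local leaf; circles are local and triangles systemic leaves, and error bars are omitted. WRKY33 and WRKY40 stand far above their water control level in both local high light groups.

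The other 6 members did not pass the filter. WRKY31 and WRKY74 never exceeded the floor. WRKY75 and WRKY41 exceeded it in 2 libraries each, with highest values of 7.10 and 5.10 normalized counts. WRKY55 exceeded it in 10 libraries and reached 10.2 normalized counts, and WRKY65 in 15 libraries with a highest value of 12.1. The highest values of WRKY75, WRKY41 and WRKY55 were all in DPI control local libraries.

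Libraries held 13492454 to 26913744 reads, and the floor of 3 reads corresponded to 2.00 to 4.27 normalized counts. Replicates correlated across tested genes with r of 0.987 to 0.994. Leaf mesophyll markers were high in every library (RBCS1A, a Rubisco subunit gene, at 169304 to 202307 normalized counts), while the senescence marker SAG12 was at 1.1 or less. Other markers moved with light or drop, and values of the local leaf come first. The summed level of 4 guard cell markers there was 949 to 1092 in the water control and 733 to 759.7 after high light, and 879 to 967 and 670.4 to 717 with DPI. Sums of 3 epidermis and trichome markers were 3038 to 3176 and 2242 to 2378 with water, and 2431 to 2554 and 2216 to 2319 with DPI. Nearly all of this sum was ATML1. PDF1, an epidermis gene of the same list, was at 102, 101 and 121 in the water control and 1.09, 1.04 and 0 after high light with water, the latter all at or under the floor, and at 50.98, 39.6 and 34.7 and 11.4, 1.08 and 2.02 with DPI. GL1, a trichome gene, was at 1.08 or less throughout. The summed level of 2 phloem companion cell markers was 2447 to 2577 and 3139.8 to 3225 with water, and 3122 to 3295 and 3798 to 3961 with DPI. The xylem marker IRX3 was at 89.6 to 92.0 and 37.5 to 59.0 with water and at 69.4 to 98.6 and 69.7 to 91.1 with DPI, and a pair of root markers summed to 58.4 to 72.3 and 53.9 to 79.1, and to 67.4 to 104 and 41.4 to 46.97. This pair, PYK10 and AGP31, went opposite ways with DPI. PYK10 fell from 86.1, 68.0 and 46.95 to 19.9, 16.1 and 18.2, and AGP31 rose from 18.1, 14.2 and 20.4 to 27.0, 26.9 and 23.2. SAG13, a marker of early senescence and cell death, went from 37.3, 26.3 and 32.6 to 79.8, 109 and 87.0 with water, and from 281, 277 and 339.9 to 14.2, 10.8 and 10.1 with DPI. In the systemic leaf PDF1 was at 34.4, 31.997 and 28.7 in the water control and 78.1, 101 and 83.1 after high light with water, a log2 difference of 1.43 (SE 0.353, adjusted p 0.00398), and at 75.5, 66.1 and 70.6 in the DPI control, 1.13 (SE 0.353, adjusted p 0.00894) above the water control. The root markers there summed to 52.8 to 77.2 and 89.4 to 121 with water, without overlap, and to 67.6 to 84.2 and 40.8 to 83.1 with DPI. The higher sum with water came from PYK10 alone, whose systemic libraries did not overlap between control and high light. AGP31 libraries overlapped there, and most of those after high light lay below the control. With DPI, systemic PYK10 was lower after high light without overlap, and AGP31 overlapped. Systemic phloem sums were 2712 to 2804 and 2304 to 2567 with water, and 3006 to 3143 and 3212 to 3268 with DPI. Systemic guard cell sums overlapped with water, at 951 to 1022 and 969 to 1012, and were 959 to 1018 and 906 to 955 with DPI. Those of the epidermis and trichome markers also overlapped with water, at 2737 to 2797 and 2640 to 2929. With DPI they were 2718 to 2755 and 2572 to 2631. SAG13 in systemic leaves was at 37.8, 65.1 and 72.8, and 85.8, 87.3 and 100.3 after high light, with water, and at 71.5, 135 and 133, and 56.7, 38.3 and 58.4 after high light, with DPI. The part of these lists in the local and systemic results below was not tested. In whole leaves, fewer cells of a type and less RNA per cell cannot be told apart.

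The first question was which WRKY transcripts responded to light with water in the drop. In the local leaf 16 of 41 tested members rose and 3 fell at a limma adjusted p under 0.05, where 17.9% of 18314 tested genes rose and 14.4% fell (32.3% in either direction). Their median log2 difference was 0.20, against 0.00 for all tested genes. The largest rises were those of WRKY40, WRKY33 and WRKY46, with log2 differences of 3.22, 3.10 and 2.35. In the systemic leaf 12 members rose and 0 fell, against 7.66% and 3.1% of all tested genes (10.8% in either direction). At an unadjusted p under 0.05, 1 member, WRKY50, was lower there, and edgeR and DESeq2 called 0 members lower. Of the 16 locally raised members 11 (68.8%) were also raised in the systemic leaf, which is 91.7% of the systemic list. Over all tested genes the same overlap was 30.6% of the local and 71.5% of the systemic list. WRKY26 was raised only by the systemic test, and the leaf by light interaction below compares the leaves directly.

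With DPI in the drop, 8 members rose and 14 fell in the local leaf, against 17.9% and 15.9% of all tested genes (33.8% in either direction), and the members' median was −0.08. The 14 include WRKY62, which passed the filter on low values only through the local DPI control libraries. All 8 that rose had also risen with water, and they make up 50% of the water list, where over all tested genes the overlap was 54.4% of the DPI and 54.4% of the water list. Of the 16 raised with water, 5 (31.2%: WRKY47, WRKY50, WRKY54, WRKY70 and WRKY38) fell with DPI, against 14.3% of all genes raised with water. WRKY1, WRKY46 and WRKY48 did not pass the threshold with DPI. In the systemic leaf 9 members rose with DPI and 1 fell, against 7.15% and 4.56% (11.7% in either direction). Of these 9, 8 (88.9%) had also risen with water, which is 66.7% of the water list. Over all tested genes the overlap was 53.4% and 49.8%. The difference between the members' overlaps and those of all genes was not tested. The members raised in the systemic leaf with water but not past the threshold with DPI were WRKY53, WRKY46, WRKY70 and WRKY54, all of group III.

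The DPI drop alone was compared with the water drop in leaves without light stress. In the local leaf 22 members were higher and 2 lower with DPI, where 21.5% and 19% of all tested genes were (40.5% in either direction), and the log2 differences of the members had a median of 0.60. The 22 include WRKY62, which passed the filter on low values only through the local DPI control libraries. In the systemic leaf 14 were higher and 1 lower, against 20.7% and 18.8% (39.5% in either direction), with a median of 0.31. The light responses with DPI start from these raised controls and share those libraries.

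Whether the drop changed the light response was tested as the interaction, the response with DPI minus that with water. In the local leaf it was negative for 16 members and positive for 1, WRKY11, against 11.1% and 8.74% of all tested genes (19.9% in either direction). With quantile normalization the split was 15 negative and 3 positive. In the systemic leaf 7 were negative and 0 positive, against 4.08% and 2.32% (6.4% in either direction). At an unadjusted p under 0.05, 1 member, WRKY11, was positive there, and edgeR and DESeq2 called 0 positive. The leaf by light interaction, systemic minus local, was positive for 3 members and negative for 9 with water, against 8.52% and 10.3% (18.8% in either direction). With DPI it was positive for 8 and negative for 3, against 6.04% and 7.13% (13.2% in either direction), and quantile normalization gave 8 and 1.

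**Figure D2:**
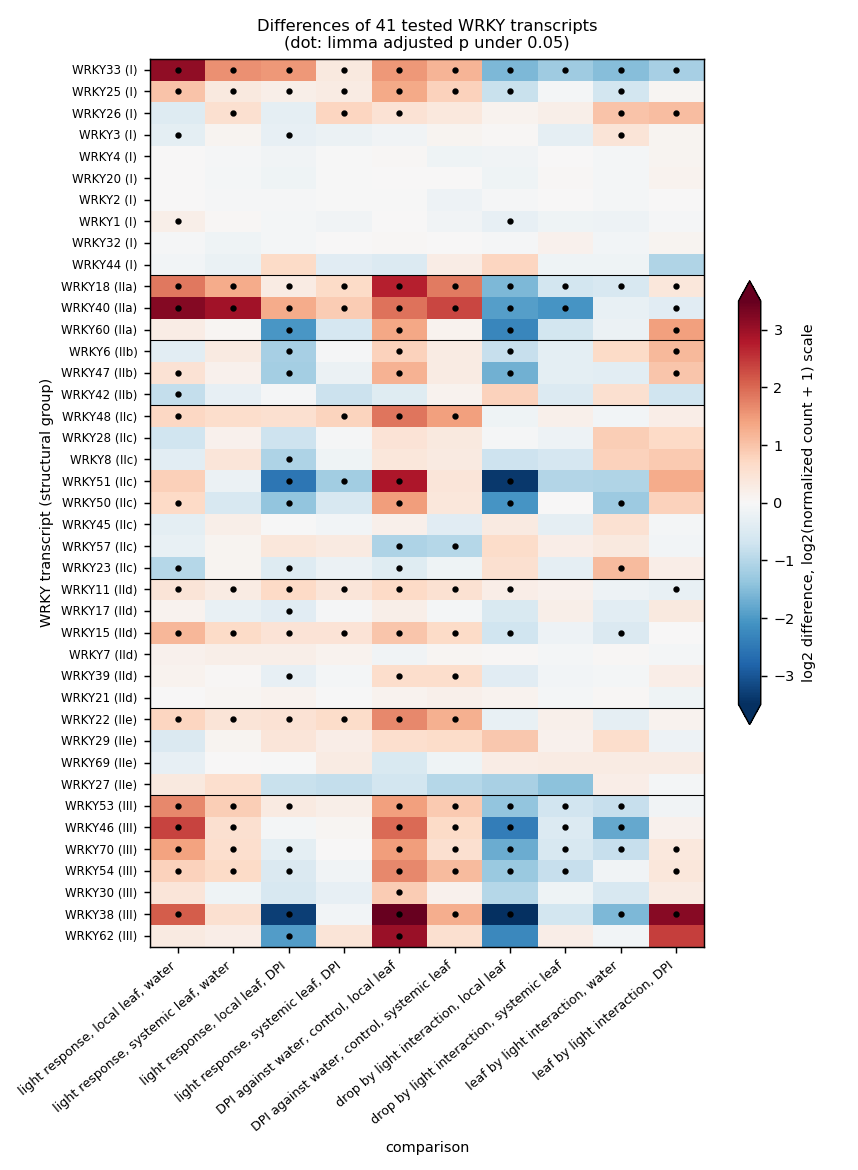
Log2 differences (colour, log2(normalized count + 1) scale) of the 41 tested members in the 10 comparisons, ordered by structural group, with a dot where the limma adjusted p was under 0.05. The deepest colour is that of WRKY38 in the local drop by light interaction (−5.41), and 12 members have no dot.

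The counts of the structural groups below are to be read against all tested genes, of which 17.9% rose and 14.4% fell with light in the local leaf with water, 17.9% and 15.9% with DPI, and 21.5% were higher and 19% lower in the local DPI control. Group I proteins carry WRKY domains in a pair, and WRKY33 is their best-studied member, a substrate of the MAP kinases MPK3 and MPK6 that activates camalexin synthesis and protects against necrotrophic fungi. Of the 10 tested members, 3 rose and 1 fell with light in the local leaf with water, 2 and 1 did so with DPI, and 3 were higher and 0 lower in the local DPI control. WRKY33 (AT2G38470) libraries of the local leaf held 485, 475 and 556 in the water control, 4176, 4326 and 4453 after high light with water, 1400.3, 1436 and 1519 in the DPI control and 4081, 4175 and 4199 after high light with DPI. Both high light groups were close in level, while the DPI control was above the water control without overlap. The light response was a 8.55-fold rise with water, a log2 difference of 3.10 (SE 0.0505, adjusted p 1.7e-36), and 1.52 (SE 0.0505, adjusted p 1.13e-25) with DPI. WRKY33 libraries of the systemic leaf held 525, 470.0 and 508 in the water control, 1537, 1556 and 1454 after high light with water, 1121, 1212 and 1106 in the DPI control and 1478, 1416 and 1497 after high light with DPI. The systemic rise was 1.59 (SE 0.0505, adjusted p 1.74e-25) with water and 0.35 (SE 0.0505, adjusted p 9.77e-07) with DPI, and the interaction was −1.58 (SE 0.0714, adjusted p 1.85e-20) in the local and −1.24 (SE 0.0714, adjusted p 1.69e-16) in the systemic leaf. DPI alone raised the control level by 1.52 locally and 1.19 in the systemic leaf. Genes on the opposite strand overlap WRKY33, and whether counting used the strand is not stated in the sources used here.

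WRKY25 and WRKY26 act with WRKY33 in heat tolerance. WRKY25 (AT2G30250) rose with light in all 4 comparisons, by 0.99 in the local and 0.35 in the systemic leaf with water and by 0.22 and 0.29 with DPI. The local rise with DPI was lost when DPI high light local replicate 1 was left out (log2 difference 0.17). The rise with water exceeded that with DPI by an interaction of −0.78 (SE 0.0927, adjusted p 1.7e-08) and that of the systemic leaf by −0.64 (SE 0.0927, adjusted p 9.37e-07). WRKY26 (AT5G07100) in local leaves was at 60.5, 49.8 and 47.3 in the water control, 33.9, 41.6 and 39.7 after high light with water, 75.9, 64.9 and 83.7 in the DPI control and 58.4, 54.9 and 65.7 after high light with DPI. WRKY26 in systemic leaves was at 47.8, 55.2 and 40.1 in the water control, 89.1, 71.1 and 54.7 after high light with water, 52.7, 64.4 and 68.9 in the DPI control and 116, 103 and 97.6 after high light with DPI. Its systemic DPI libraries did not overlap between control and high light, and its systemic water libraries overlapped slightly. WRKY26 rose in the systemic leaf, by 0.56 (SE 0.175, adjusted p 0.0293) with water and 0.76 (SE 0.175, adjusted p 0.00151) with DPI, and its local differences of −0.44 and −0.32 did not pass. The leaf by light interaction was 1.0 (SE 0.247, adjusted p 0.00263) with water and 1.08 (SE 0.247, adjusted p 0.00148) with DPI. The systemic rise with water was lost when any 1 of water control systemic replicates 1 and 3 and water high light systemic replicates 1 and 2 was left out (log2 difference 0.39 to 0.57). DPI alone raised WRKY26 locally by 0.50, a call that was lost when any 1 of DPI control local replicates 1 and 3 and water control local replicates 2 and 3 was left out (log2 difference 0.42 to 0.49).

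WRKY3 (AT2G03340), which together with WRKY4 contributes to resistance against necrotrophs, had local levels of 425, 416 and 422 in the water control, 312, 361 and 325 after high light with water, 384, 375 and 392 in the DPI control and 312, 319.8 and 306 after high light with DPI. Every local high light library lay below every control library of the same drop. The falls were −0.34 (SE 0.0727, adjusted p 0.000233) with water and −0.29 (SE 0.0727, adjusted p 0.00129) with DPI. WRKY3 had systemic levels of 403, 406 and 338 in the water control, 447, 378 and 400.1 after high light with water, 392, 433 and 398 in the DPI control and 349, 369.5 and 341 after high light with DPI, which overlapped between light and control with water. Its leaf by light interaction with water was 0.44 (SE 0.103, adjusted p 0.0015). WRKY1 rose by 0.20 in the local leaf with water (536 to 568 and 592 to 678 normalized counts), a call that was lost when any 1 of water control local replicates 2 and 3 and water high light local replicate 3 was left out (log2 difference 0.15 to 0.19). Its local interaction, −0.28, was lost when any 1 of DPI control local replicate 2, DPI high light local replicates 2 and 3, water control local replicates 2 and 3 and water high light local replicate 3 was left out (log2 difference −0.27 to −0.23). WRKY4, WRKY20, WRKY2, WRKY32 and WRKY44 passed the threshold in no comparison.

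Group IIa comprises WRKY18, WRKY40 and WRKY60, leucine-zipper proteins that bind each other and restrain basal defence and abscisic acid responses. Of the 3 tested members, 2 rose and 0 fell with light in the local leaf with water, 2 and 1 did so with DPI, and 3 were higher and 0 lower in the local DPI control. WRKY40 (AT1G80840) in local leaves reached 144, 146 and 174 in the water control, 1377, 1422 and 1528 after high light with water, 508, 565 and 658 in the DPI control and 1368, 1382 and 1474 after high light with DPI. Its level after high light was alike with both drops, while DPI raised the control. WRKY40 in systemic leaves reached 78.9, 86.1 and 115 in the water control, 753, 687 and 714 after high light with water, 481, 458 and 473 in the DPI control and 846, 858 and 918 after high light with DPI. This was the largest systemic rise of the family with water, 7.72-fold or 2.95 (SE 0.0890, adjusted p 3.79e-26), and it was 0.89 (SE 0.0890, adjusted p 3.05e-10) with DPI. In the lit leaf the rise was 3.22 (SE 0.0890, adjusted p 1.25e-28) with water and 1.29 (SE 0.0890, adjusted p 1.88e-15) with DPI. The interaction was −1.92 (SE 0.126, adjusted p 1.69e-15) locally and −2.06 (SE 0.126, adjusted p 1.17e-15) in the systemic leaf. A leaf by light interaction of −0.40 with DPI was lost when any 1 of DPI control local replicates 1 and 2, DPI control systemic replicate 1, DPI high light local replicate 3 and DPI high light systemic replicates 1 and 2 was left out (log2 difference −0.39 to −0.31) and with quantile normalization. A gene on the opposite strand overlaps WRKY40, and 0.32% of its 75-base stretches occur in another gene.

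WRKY18 (AT4G31800) in local leaves stood at 147, 151 and 161 in the water control, 599, 507 and 567 after high light with water, 999, 989 and 1038 in the DPI control and 1226, 1152 and 1292 after high light with DPI. DPI without light gave a higher level than light with water, and none of these groups overlapped. The DPI effect was 2.71 (SE 0.0776, adjusted p 1.65e-27) in the local and 1.82 (SE 0.0776, adjusted p 9.73e-22) in the systemic control, and the local light response was 1.85 (SE 0.0776, adjusted p 1.79e-22) with water and 0.28 (SE 0.0776, adjusted p 0.00461) with DPI. The last of these did not pass with quantile normalization. WRKY18 in systemic leaves stood at 169, 146 and 201 in the water control, 387, 441 and 445 after high light with water, 605, 580.5 and 628 in the DPI control and 1023, 923 and 952 after high light with DPI. Systemic rises were 1.31 (SE 0.0776, adjusted p 6.6e-17) with water and 0.67 (SE 0.0776, adjusted p 9.32e-09) with DPI, with an interaction of −0.63 (SE 0.11, adjusted p 7.48e-05).

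WRKY60 went another way. WRKY60 (AT2G25000) in local leaves was measured at 33.3, 33.8 and 35.0 in the water control, 45.9, 31.2 and 47.3 after high light with water, 78.2, 83.2 and 104 in the DPI control and 18.5, 16.1 and 29.3 after high light with DPI. DPI raised it without light and its level after light with DPI was the lowest of the local groups. The DPI effect was 1.34 (SE 0.222, adjusted p 3.67e-06), the light response with DPI −2.04 (SE 0.222, adjusted p 6.66e-10) and that with water 0.26 (SE 0.222, adjusted p 0.419), not past the threshold. WRKY60 in systemic leaves was measured at 48.9, 30.9 and 46.1 in the water control, 44.0, 40.9 and 43.6 after high light with water, 46.7, 35.5 and 53.2 in the DPI control and 28.9, 25.1 and 34.4 after high light with DPI, and no systemic light response passed. The local interaction was −2.29 (SE 0.314, adjusted p 3.13e-07), and the leaf by light interaction with DPI was 1.45 (SE 0.314, adjusted p 0.000814).

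**Figure D3:**
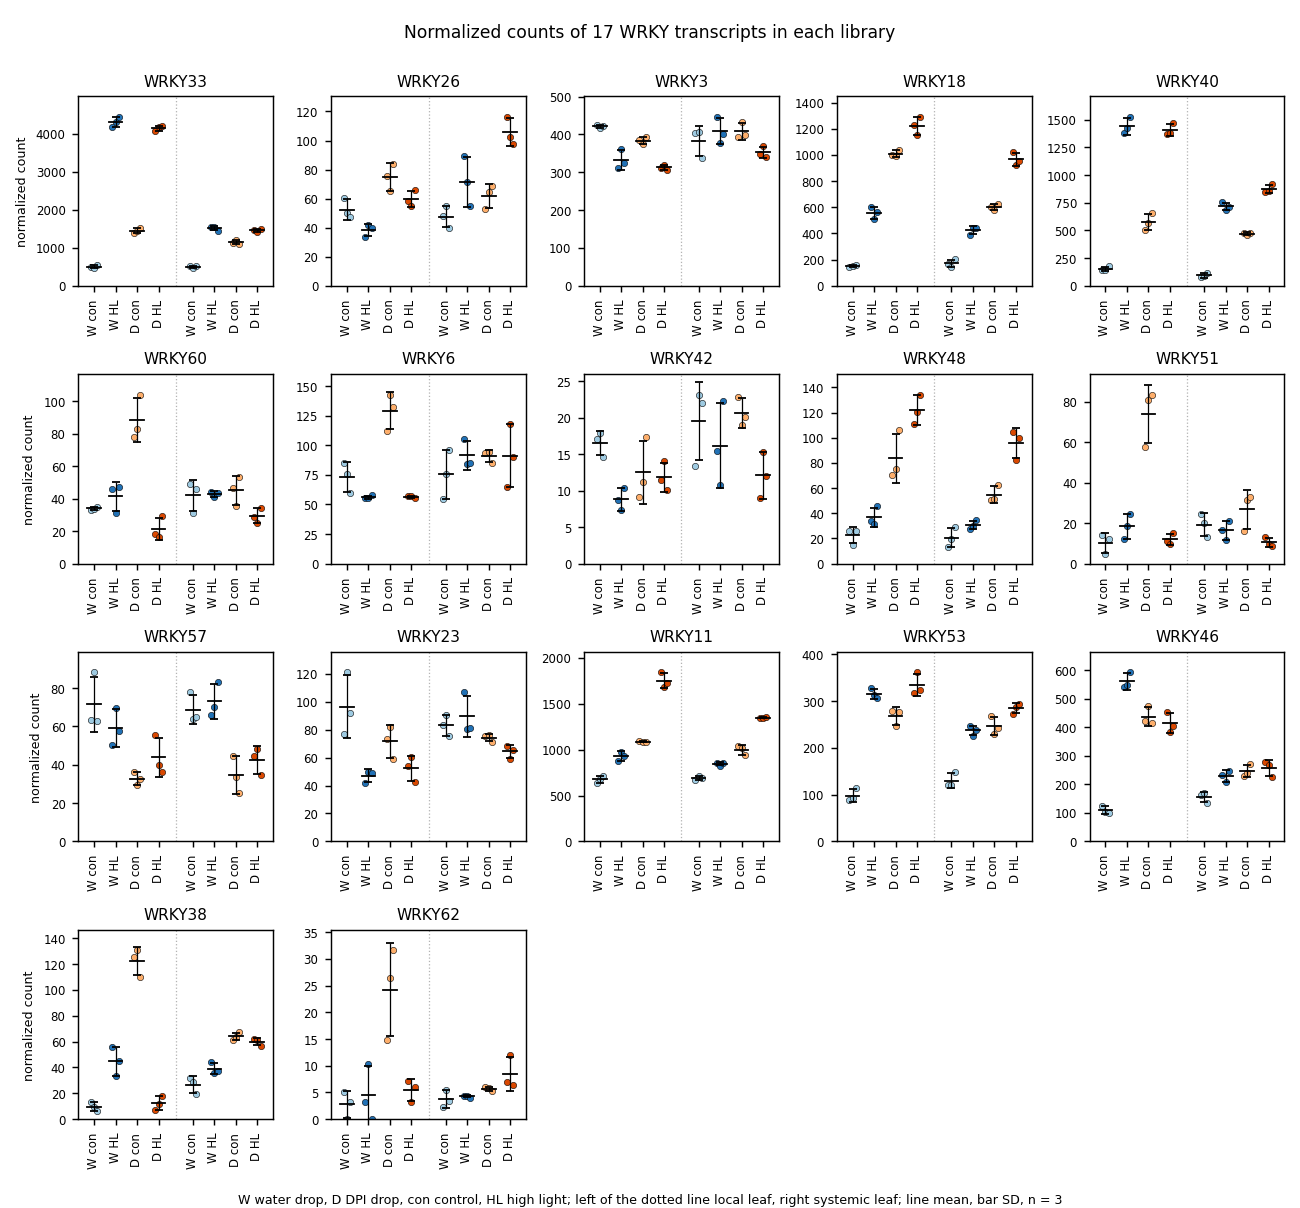
Normalized counts of the 17 members chosen by the rule for named genes, each point a library, with the mean (line) and SD (bar) of the 3 libraries of a group; the left block of each panel is the local and the right the systemic leaf. WRKY33 and WRKY40 are highest in both local high light groups, and WRKY38, WRKY51, WRKY60 and WRKY62 in the local DPI control.

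In group IIb, WRKY6 and WRKY42 are known as repressors of the phosphate exporter gene PHO1, and WRKY6 also for its role in senescence. Of the 3 tested members, 1 rose and 1 fell with light in the local leaf with water, 0 and 2 did so with DPI, and 2 were higher and 0 lower in the local DPI control. Local WRKY6 (AT1G62300) levels were 84.6, 76.1 and 59.5 in the water control, 55.7, 55.2 and 57.7 after high light with water, 112, 143 and 133 in the DPI control and 56.9, 57.1 and 55.6 after high light with DPI. The DPI control libraries lay above all other local libraries. DPI raised WRKY6 by 0.82 (SE 0.178, adjusted p 0.000248) and light with DPI lowered it by a log2 difference of −1.17 (SE 0.178, adjusted p 1.05e-06), whereas light with water gave −0.36, not past the threshold. Systemic WRKY6 levels were 54.4, 76.1 and 96.2 in the water control, 106, 84.0 and 85.1 after high light with water, 93.4, 94.1 and 85.4 in the DPI control and 64.7, 118 and 90.4 after high light with DPI, with overlapping ranges. The local interaction of −0.81 (SE 0.252, adjusted p 0.0181) was lost when any 1 of DPI control local replicate 2 and water control local replicate 3 was left out (log2 difference −0.73 to −0.67). WRKY47 was also highest in the local DPI control, with means of 33.3, 47.4, 79.0 and 34.7 normalized counts in the water control, water high light, DPI control and DPI high light groups, and it had an interaction of −1.69 (SE 0.246, adjusted p 1.06e-06). Its rise with water, 0.51, was lost when any 1 of water control local replicate 2 and water high light local replicate 2 was left out (log2 difference 0.40 to 0.48).

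Local WRKY42 (AT4G04450) levels were 17.1, 17.8 and 14.7 in the water control, 8.75, 7.29 and 10.4 after high light with water, 9.06, 11.2 and 17.4 in the DPI control and 11.4, 14.0 and 10.1 after high light with DPI. Its fall with light under water, −0.85 (SE 0.318, adjusted p 0.037), was lost when any 1 of water control local replicates 1, 2 and 3 and water high light local replicates 1 and 2 was left out (log2 difference −0.93 to −0.73), with edgeR, with DESeq2 and without a filter. Systemic WRKY42 levels were 13.3, 23.2 and 22.0 in the water control, 15.4, 10.8 and 22.3 after high light with water, 22.9, 19.0 and 20.1 in the DPI control and 8.95, 15.3 and 12.0 after high light with DPI, and nothing else passed for it.

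Group IIc members include WRKY48, a negative regulator of basal resistance to bacteria. Of the 8 tested members, 2 rose and 1 fell with light in the local leaf with water, 0 and 4 did so with DPI, and 3 were higher and 2 lower in the local DPI control. WRKY48 (AT5G49520) in local leaves counted 26.2, 15.0 and 26.1 in the water control, 33.9, 31.2 and 45.4 after high light with water, 70.2, 75.1 and 106 in the DPI control and 111, 121 and 134 after high light with DPI. WRKY48 in systemic leaves counted 13.3, 19.9 and 28.7 in the water control, 27.5, 30.2 and 34.4 after high light with water, 50.7, 51.2 and 62.8 in the DPI control and 104, 82.0 and 100.03 after high light with DPI. In both leaves the DPI controls lay above the water controls without overlap. The DPI effect was 1.87 (SE 0.225, adjusted p 5.08e-09) in the local and 1.43 (SE 0.225, adjusted p 1.63e-06) in the systemic leaf. Light gave 0.71 (SE 0.225, adjusted p 0.0119) locally and 0.61 (SE 0.225, adjusted p 0.0792) in the systemic leaf with water, and 0.56 (SE 0.225, adjusted p 0.0526) and 0.79 (SE 0.225, adjusted p 0.0136) with DPI, so that the first and the last passed. The first was lost when any 1 of water control local replicate 2 and water high light local replicate 3 was left out (log2 difference 0.46 to 0.56), and the last when any 1 of DPI control systemic replicates 1 and 2 and DPI high light systemic replicates 1 and 3 was left out (log2 difference 0.72 to 0.75). The local response with DPI passed with edgeR (adjusted p 0.0096) and DESeq2 (adjusted p 0.0187). Interactions of WRKY48 ranged from −0.16 to 0.23 and did not pass.

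WRKY50 and WRKY51 mediate repression of jasmonate responses by salicylic acid. Local libraries of WRKY51 (AT5G64810) contained 14.1, 4.70 and 12.2 in the water control, 12.0, 18.7 and 24.6 after high light with water, 57.8, 81.1 and 83.7 in the DPI control and 11.4, 9.69 and 15.2 after high light with DPI. The local DPI control stood above the other local groups without overlap. WRKY51 was raised by DPI by 2.83 (SE 0.342, adjusted p 6e-09) and its light response with DPI was −2.53 (SE 0.342, adjusted p 9.5e-08), with an interaction of −3.37 (SE 0.483, adjusted p 7.56e-07). Systemic libraries of WRKY51 contained 24.4, 19.9 and 13.4 in the water control, 16.5, 11.9 and 21.3 after high light with water, 15.9, 31.4 and 33.1 in the DPI control and 12.9, 9.84 and 8.80 after high light with DPI. The systemic response with DPI, −1.22 (SE 0.342, adjusted p 0.0118), was lost when any 1 of DPI control systemic replicates 2 and 3 and DPI high light systemic replicate 3 was left out (log2 difference −1.11 to −1.04). WRKY50 followed the same order locally, with means of 27.6, 45.4, 77.0 and 29.3 normalized counts and an interaction of −2.07 (SE 0.344, adjusted p 1.12e-05). Its rise with water, 0.69, was lost when any 1 of water control local replicate 3 and water high light local replicates 1 and 3 was left out (log2 difference 0.49 to 0.62).

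WRKY57, known from drought tolerance and jasmonate-induced senescence, was the only member lower with DPI in both leaves. Local WRKY57 (AT1G69310) libraries had 63.5, 88.3 and 62.7 in the water control, 50.3, 69.7 and 57.7 after high light with water, 36.3, 29.4 and 32.7 in the DPI control and 55.5, 39.8 and 36.4 after high light with DPI. Systemic WRKY57 libraries had 77.8, 64.0 and 64.8 in the water control, 66.0, 70.0 and 83.1 after high light with water, 44.7, 33.9 and 25.3 in the DPI control and 44.8, 48.1 and 34.4 after high light with DPI. Each DPI control library lay below each water control library of its leaf. The differences were −1.09 (SE 0.203, adjusted p 2.53e-05) and −1.0 (SE 0.203, adjusted p 8.91e-05), and no light response passed.

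WRKY23 is an auxin-responsive gene. Local WRKY23 (AT2G47260) libraries had 76.6, 121 and 92.1 in the water control, 41.5, 50.0 and 49.2 after high light with water, 73.6, 82.2 and 59.2 in the DPI control and 54.1, 60.3 and 42.4 after high light with DPI. Systemic WRKY23 libraries had 83.3, 90.5 and 75.5 in the water control, 107, 80.8 and 81.0 after high light with water, 75.5, 76.0 and 71.5 in the DPI control and 68.7, 59.0 and 65.6 after high light with DPI. With water, the local leaf separated light from control and the systemic leaf did not. The local fall with water was −1.01 (SE 0.168, adjusted p 5.95e-06), and the leaf by light interaction 1.1 (SE 0.238, adjusted p 0.000539). Its local fall with DPI, −0.45, was lost when any 1 of DPI control local replicates 1 and 2 and DPI high light local replicate 3 was left out (log2 difference −0.42 to −0.31), and its lower level in the DPI control, −0.41, when any 1 of DPI control local replicates 1 and 3 and water control local replicates 2 and 3 was left out (log2 difference −0.44 to −0.24). WRKY8 fell locally with light under DPI (−1.08), and WRKY28 and WRKY45 passed in no comparison.

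Group IId proteins bind calmodulin, and WRKY11 is a negative regulator of basal resistance. Of the 6 tested members, 2 rose and 0 fell with light in the local leaf with water, 2 and 2 did so with DPI, and 3 were higher and 0 lower in the local DPI control. WRKY11 (AT4G31550) in local leaves amounted to 632, 682 and 714 in the water control, 875, 979 and 929 after high light with water, 1089.9, 1084 and 1082 in the DPI control and 1843, 1684 and 1723 after high light with DPI. WRKY11 in systemic leaves amounted to 672, 715 and 692 in the water control, 859, 826 and 854 after high light with water, 1039, 1015 and 938 in the DPI control and 1343, 1350.1 and 1356 after high light with DPI. Every light group was above its control without overlap, and every DPI group above the matching water group. Rises with light were 0.46 (SE 0.0497, adjusted p 6.69e-10) and 0.29 (SE 0.0497, adjusted p 3.24e-05) with water in the local and systemic leaf, and 0.69 (SE 0.0497, adjusted p 8.36e-15) and 0.44 (SE 0.0497, adjusted p 6.99e-09) with DPI. The positive local interaction of 0.23 (SE 0.0703, adjusted p 0.0149) was lost when any 1 of DPI high light local replicate 1, water control local replicate 3 and water high light local replicate 1 was left out (log2 difference 0.19). With DPI its systemic rise was smaller than the local one by −0.25, a call that was lost when DPI high light local replicate 1 was left out (log2 difference −0.21). WRKY15, linked to oxidative stress responses, also rose in all 4 light comparisons, by 1.17, 0.66, 0.48 and 0.48 in the same order, with a negative local interaction of −0.69 (SE 0.0815, adjusted p 1.43e-08). WRKY17 and WRKY39 fell in the local leaf with DPI, by log2 differences of −0.41 and −0.28. These calls were lost for WRKY17 when any 1 of DPI control local replicates 2 and 3 and DPI high light local replicate 1 was left out (log2 difference −0.40 to −0.17), and for WRKY39 when any 1 of DPI control local replicates 2 and 3 and DPI high light local replicates 1, 2 and 3 was left out (log2 difference −0.30 to −0.25). WRKY39 was raised by DPI alone, by 0.60 locally and 0.61 in the systemic leaf. WRKY7 and WRKY21 passed in no comparison.

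In group IIe, WRKY22, which acts downstream of flagellin perception, rose with light in all 4 comparisons, by 0.76 and 0.45 with water and 0.51 and 0.63 with DPI in the local and systemic leaf. Its systemic rise with water was lost when any 1 of water control systemic replicate 3 and water high light systemic replicate 2 was left out (log2 difference 0.38 to 0.42). DPI alone raised WRKY22 by 1.68 and 1.25, and its interactions did not pass. WRKY29, WRKY69 and WRKY27 passed in no comparison.

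All 7 tested members of group III were higher in the local DPI control than in the water control, as were 21.5% of all tested genes. With light in the local leaf 5 rose and 0 fell with water, and 1 rose and 4 fell with DPI. WRKY62 is among the 7 and among the 4, and it passed the filter only through the local DPI control libraries. Group III includes WRKY53, a hydrogen peroxide-responsive regulator of leaf senescence, and WRKY46, WRKY54 and WRKY70, which act in salicylic acid signalling. WRKY53 (AT4G23810) in local leaves gave 88.7, 92.0 and 113 in the water control, 328, 312 and 307 after high light with water, 279.8, 246 and 278 in the DPI control and 317, 362 and 323 after high light with DPI. WRKY53 in systemic leaves gave 121, 121 and 148 in the water control, 246, 226 and 239 after high light with water, 267, 230.4 and 243 in the DPI control and 273, 289 and 293 after high light with DPI. With water, light and control were far apart in both leaves, and with DPI the controls already stood near the light level of the water groups. The light response was 1.69 (SE 0.0940, adjusted p 2.36e-18) locally and 0.87 (SE 0.0940, adjusted p 2.01e-09) in the systemic leaf with water. With DPI it was 0.32 (SE 0.0940, adjusted p 0.00731) and 0.21 (SE 0.0940, adjusted p 0.184), and the first of these was lost when any 1 of DPI control local replicate 2 and DPI high light local replicate 2 was left out (log2 difference 0.26). The interaction was −1.37 (SE 0.133, adjusted p 1.11e-10) in the local and −0.66 (SE 0.133, adjusted p 0.00067) in the systemic leaf, and DPI alone raised the level by 1.45 and 0.92. A gene on the opposite strand overlaps WRKY53.

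WRKY46 (AT2G46400) in local leaves gave 125, 104 and 98.6 in the water control, 540.0, 549.5 and 593 after high light with water, 421, 475 and 414 in the DPI control and 454, 383 and 406 after high light with DPI. Light raised it with water, and with DPI the light and control groups overlapped. WRKY46 in systemic leaves gave 163, 169 and 136 in the water control, 232, 208 and 247 after high light with water, 229, 240.3 and 271 in the DPI control and 279.6, 269 and 227 after high light with DPI. The local light response was 2.35 (SE 0.0979, adjusted p 1.41e-22) with water and −0.08 (SE 0.0979, adjusted p 0.598) with DPI, an interaction of −2.43 (SE 0.138, adjusted p 2.4e-17). The systemic rise with water was 0.56 (SE 0.0979, adjusted p 4.71e-05), smaller than the local one by a leaf by light interaction of −1.80 (SE 0.138, adjusted p 1.53e-13). Its systemic interaction, −0.49, was lost when any 1 of DPI control systemic replicate 3, DPI high light systemic replicate 3, water control systemic replicate 3 and water high light systemic replicates 1 and 3 was left out (log2 difference −0.48 to −0.39).

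WRKY70 and WRKY54 rose with light under water and fell locally with light under DPI. WRKY70 (AT3G56400) had local means of 1045, 2748, 2885 and 2279 normalized counts in the water control, water high light, DPI control and DPI high light groups, and light responses of 1.40 (SE 0.0422, adjusted p 2.72e-27) with water and −0.34 (SE 0.0422, adjusted p 1.46e-08) with DPI. For WRKY54 (AT2G40750) the means were 118, 206, 381 and 267, with responses of 0.80 (SE 0.0944, adjusted p 5.08e-09) and −0.50 (SE 0.0944, adjusted p 3.77e-05). Their interactions were −1.74 and −1.30 in the local and −0.57 and −0.80 in the systemic leaf, all past the threshold. With DPI the leaf by light interaction was 0.36 for WRKY70 and 0.39 for WRKY54, and the latter was lost when any 1 of DPI control local replicates 1 and 3, DPI control systemic replicates 1 and 2, DPI high light local replicates 1, 2 and 3 and DPI high light systemic replicates 1, 2 and 3 was left out (log2 difference 0.34 to 0.41).

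WRKY38 and WRKY62 are closely related and act as salicylic acid-induced negative regulators of basal defence. WRKY38 (AT5G22570) in local leaves gave 13.1, 9.39 and 6.52 in the water control, 55.7, 33.3 and 45.4 after high light with water, 126, 131 and 110.2 in the DPI control and 7.12, 11.8 and 18.2 after high light with DPI. The DPI control was the highest group and the level after light with DPI overlapped that of the water control. The light response was 2.12 (SE 0.252, adjusted p 5.5e-09) with water and −3.29 (SE 0.252, adjusted p 4.59e-14) with DPI, and the interaction of −5.41 (SE 0.356, adjusted p 2.01e-15) was the largest in size of the 41 members in any comparison. WRKY38 in systemic leaves gave 32.2, 28.7 and 19.4 in the water control, 44.0, 35.6 and 37.5 after high light with water, 61.6, 63.6 and 67.1 in the DPI control and 61.7, 61.2 and 56.8 after high light with DPI. No systemic light response passed, and the leaf by light interaction was −1.57 (SE 0.356, adjusted p 0.00103) with water and 3.19 (SE 0.356, adjusted p 4.54e-09) with DPI. WRKY62 (AT5G01900) in local leaves gave 5.04, 0 and 3.26 in the water control, 3.28, 10.4 and 0 after high light with water, 14.7, 26.4 and 31.6 in the DPI control and 7.12, 3.23 and 6.06 after high light with DPI, few reads outside the DPI control. DPI raised it by 3.03 (SE 0.603, adjusted p 6.87e-05). WRKY62 passed the filter on low values only through the local DPI control libraries. This test and the next use that group and are not independent of the filter. Its light response with DPI, −1.95 (SE 0.603, adjusted p 0.0102), was lost when any 1 of DPI control local replicate 3 and DPI high light local replicate 2 was left out (log2 difference −1.73 to −1.67). WRKY62 in systemic leaves gave 2.22, 5.52 and 3.34 in the water control, 4.40, 4.31 and 4.05 after high light with water, 5.96, 5.78 and 5.23 in the DPI control and 6.96, 12.0 and 6.40 after high light with DPI. WRKY30 was raised by DPI alone in the local leaf (0.90), a call that was lost when water control local replicate 2 was left out (log2 difference 0.65).

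**Figure D4:**
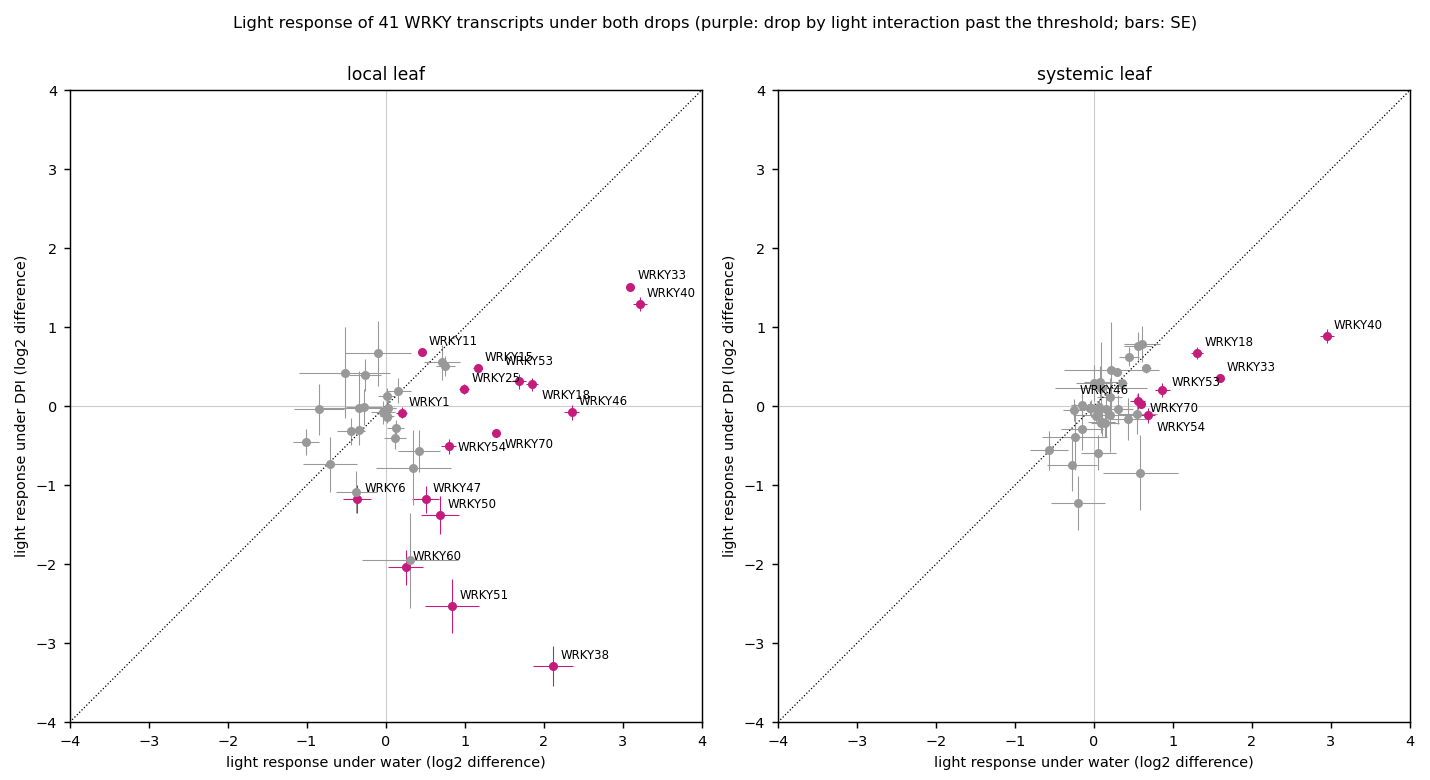
Light response with water (x axis) against light response with DPI (y axis), as log2 differences with SE bars, for the 41 tested members in the local (left) and systemic (right) leaf; members whose drop by light interaction passed the threshold are purple and named, and the dotted line marks equal responses. In the local leaf all purple points but WRKY11 lie below the line, and WRKY38, WRKY51 and WRKY60 fall to −2.04 or lower with DPI.

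The 12 members past the threshold in no comparison had log2 differences between −1.43 (WRKY27) and 0.94 (WRKY29), the extremes being transcripts at low level. The share of all tested genes past the threshold in no comparison was not counted, so the 12 are not read as a trait of the family. For WRKY2, WRKY4, WRKY7, WRKY20, WRKY21 and WRKY32 the differences stayed between −0.18 and 0.20 in all 10 comparisons.

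Other genes of the WRKY pathway were counted from a list of 27, of which 25 were tested. As the list was drawn up with earlier results known, its counts are not independent evidence of a direction. SIB2 and ACS2 did not pass the filter, and NHL10, a target gene, passed it only through the local DPI control libraries. With water, 22 rose and 0 fell with light in the local leaf (17.9% and 14.4% of all tested genes), and 10 rose and 2 fell in the systemic leaf (7.66% and 3.1%). With DPI the numbers were 9 and 11 in the local (17.9% and 15.9%) and 6 and 6 in the systemic leaf (7.15% and 4.56%). For the local 0, no listed gene was lower at an unadjusted p under 0.05, and edgeR and DESeq2 called 0 lower. DPI alone raised 21 and lowered 1 locally (21.5% and 19%), and raised 14 and lowered 2 in the systemic leaf (20.7% and 18.8%). The drop by light interaction was negative for 18 and positive for 1 in the local leaf (11.1% and 8.74%), and negative for 7 and positive for 2 in the systemic leaf (4.08% and 2.32%).

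Of the 8 kinases of the listed MAP kinase cascade, 6 rose and 0 fell with light in the local leaf with water, and 4 and 2 with DPI. For this and the other parts of the list, the shares of all tested genes were 17.9% and 14.4% with water and 17.9% and 15.9% with DPI. MPK3, the kinase of WRKY33, in local leaves had 1956, 1815 and 1881 in the water control, 5567, 5476 and 5464 after high light with water, 3295, 3544 and 3519 in the DPI control and 8102, 8129 and 8299 after high light with DPI. Light with DPI gave the highest level and no groups overlapped. Its light response was 1.55 (SE 0.0351, adjusted p 1.31e-31) locally and 0.62 (SE 0.0351, adjusted p 1.15e-17) in the systemic leaf with water, and 1.24 (SE 0.0351, adjusted p 4.01e-28) and 0.72 (SE 0.0351, adjusted p 4.84e-19) with DPI. MEKK1, a kinase further upstream, in local leaves had 578, 649.8 and 629 in the water control, 859, 843 and 822 after high light with water, 793, 831 and 805 in the DPI control and 1439, 1317 and 1358 after high light with DPI. Its local interaction was positive, 0.32 (SE 0.0746, adjusted p 0.00154), as was the systemic one, 0.33 (SE 0.0746, adjusted p 0.00291). Its systemic rise with water, 0.18, was lost when any 1 of water control systemic replicate 1 and water high light systemic replicates 1 and 2 was left out (log2 difference 0.15 to 0.16).

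VQ proteins bind WRKY factors. Of 4 tested VQ genes 4 rose and 0 fell locally with water, and 2 and 1 with DPI. SIB1, a partner of WRKY33, in local leaves had 170.3, 172 and 174 in the water control, 774, 712 and 692 after high light with water, 576, 577 and 524 in the DPI control and 888, 731 and 803 after high light with DPI. Its response to light was 2.07 (SE 0.0694, adjusted p 9.66e-26) with water and 0.53 (SE 0.0694, adjusted p 5.38e-08) with DPI, and the interaction was −1.54 (SE 0.0982, adjusted p 7.54e-16). In the systemic leaf SIB1 rose by 0.95 with water, and with DPI its difference was 0.06 (SE 0.0694, adjusted p 0.71). MKS1, which links MPK4 to WRKY33, rose locally by 1.1 (SE 0.175, adjusted p 2.5e-06) with water and 0.76 (SE 0.175, adjusted p 0.000569) with DPI, and its interaction of −0.33 did not pass.

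Of the 4 salicylic acid regulators listed, 4 rose and 0 fell with light in the local leaf with water, and 2 and 1 did so with DPI. In the local DPI control 4 were higher and 0 lower, against 21.5% and 19% of all tested genes. ICS1 (salicylic acid synthesis) in local leaves had 737, 595 and 618 in the water control, 789, 825 and 823 after high light with water, 1217, 1313 and 1227 in the DPI control and 1113, 855 and 1024 after high light with DPI. Light changed it by 0.33 (SE 0.0743, adjusted p 0.000535) with water and −0.34 (SE 0.0743, adjusted p 0.000379) with DPI.

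Of 9 tested target genes 8 rose and 0 fell with light in the local leaf with water, and 1 rose and 7 fell with DPI. NHL10 is among the 8 and among the 7. It passed the filter only through the local DPI control libraries, so its fall with DPI is not independent of the filter. Its rise with water was lost when any 1 of water control local replicates 1 and 3 and water high light local replicates 1 and 2 was left out (log2 difference 1.22 to 1.65). ACS6 (ethylene synthesis) in local leaves had 874, 989.7 and 985 in the water control, 4516, 4709 and 4667 after high light with water, 2104, 2234 and 2309 in the DPI control and 5252, 5649 and 5803 after high light with DPI. It was highest after light with DPI, and its interactions were −0.96 (SE 0.0661, adjusted p 7.62e-15) locally and −0.72 (SE 0.0661, adjusted p 9.59e-11) in the systemic leaf. PAD3 (camalexin synthesis, a WRKY33 target) and PR1 (a salicylic acid marker) had their highest level in the local DPI control, as WRKY38, WRKY51 and WRKY60 did. The PAD3 libraries of that group held 90.6, 103 and 109, and those of PR1 1053, 1056 and 1254. After light with DPI PAD3 was at 0 in all 3 libraries, a count that allows up to 3 reads in each, while WRKY33 was at 4081, 4175 and 4199 in the same libraries.

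**Figure D5:**
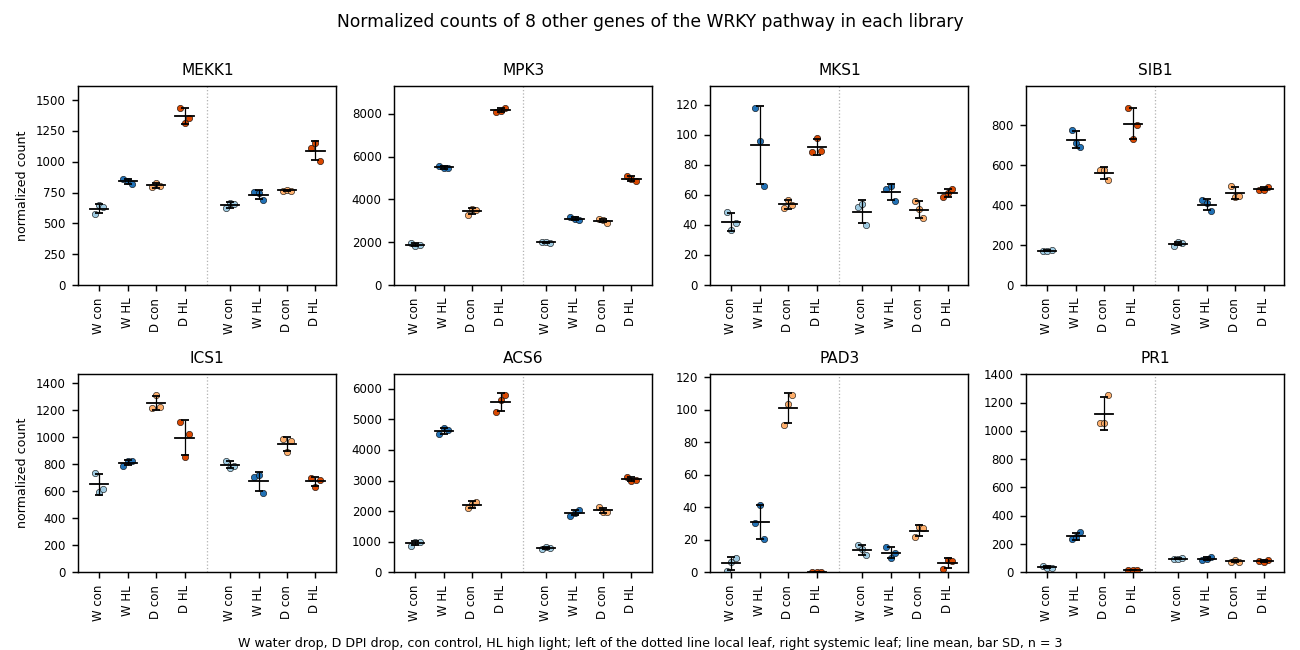
Normalized counts of 8 other genes of the WRKY pathway, drawn as for the members: points are libraries, lines means and bars SD of 3 libraries, with local leaves on the left and systemic leaves on the right of each panel. MPK3, MEKK1 and ACS6 are highest after light with DPI in both leaves, and PAD3 and PR1 in the local DPI control.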

How the data were processed

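Transcripts were sequenced in 24 libraries, 8 groups of 3 by the sample titles. According to the study's methods and processing notes, reads were checked with FastQC 0.11.7, aligned with STAR 2.4.0.1 to TAIR10 and normalized with DESeq2 1.20.0. What the authors deposited is a normalized signal, made by dividing each count of reads by a size factor. Division by the value of 1 read in each library gave whole reads for 100% of values (tolerance 1e-06). The number of columns left unmapped was 0.

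Levels were tested as log2(normalized count + 1) with limma 3.58.1 (R 4.3.3), two-sided, all 24 libraries in 1 fit of group means with 16 residual degrees of freedom and no block. Genes with at least 10 in at least 3 libraries entered, 18314 in all, and p-values were adjusted by Benjamini-Hochberg within each of 10 comparisons (threshold 0.05). Fold changes on this scale understate the change of low transcripts. edgeR 4.0.16 on the recovered reads called 1243 to 7551 genes per comparison and DESeq2 1.42.0 called 1062 to 6929. Other alternatives were pseudocounts of 5 and 0.5, no filter, a mean of at least 50, TMM, quantile normalization, only the groups in the contrast, a replicate block and leaving out each library. Scripts were tested on simulated data.

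Values in every library are given for WRKY48, WRKY53 and, per comparison, the 3 largest rises and 2 largest falls among called members with 1 sign in all 3 same-numbered replicates. WRKY70, WRKY54 and others are given by means or differences. Members and lists were chosen with earlier results of these data known. Promoters came from RefSeq TAIR10.1, joined by locus, since the table holds no coordinates. Of the members 46 share no 75-base stretch with another gene, and 9 are overlapped on the opposite strand. The counting of strands is not given in the sources used here. Counting error is all that the floor of 3 reads takes into account. Figures were drawn with matplotlib 3.10.9.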

Additional observations from a re-analysis of the deposited data

Results flagged for a closer look

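Differences between light responses, tested as interactions with limma (adjusted p under 0.05), are listed here for the members named by rule, as log2 differences. For the drops they are DPI minus water, and for the leaves systemic minus local. The light response of the local leaf differed between the drops for WRKY33 (−1.58), WRKY18 (−1.58), WRKY40 (−1.92), WRKY60 (−2.29), WRKY6 (−0.81), WRKY51 (−3.37), WRKY11 (0.23), WRKY53 (−1.37), WRKY46 (−2.43) and WRKY38 (−5.41). The systemic light response differed between the drops for WRKY33 (−1.24), WRKY18 (−0.63), WRKY40 (−2.06), WRKY53 (−0.66) and WRKY46 (−0.49). With water, the light response differed between the leaves for WRKY33 (−1.50), WRKY26 (1.0), WRKY3 (0.44), WRKY18 (−0.55), WRKY23 (1.1), WRKY53 (−0.82), WRKY46 (−1.80) and WRKY38 (−1.57). With DPI, the light response differed between the leaves for WRKY33 (−1.16), WRKY26 (1.08), WRKY18 (0.40), WRKY40 (−0.40), WRKY60 (1.45), WRKY6 (1.13), WRKY11 (−0.25) and WRKY38 (3.19). The SE and adjusted p of most stand with the members above. No group had enough libraries for a test of single outlying samples.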

How the results depend on the processing

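In each of the 10 comparisons the number of members past the threshold stayed within 1.5 times the reported one under every alternative, and no named member that passed changed direction. Leaving out 1 library gave 15 to 20 (local, water), 10 to 12 (systemic, water), 18 to 21 (local, DPI) and 8 to 10 (systemic, DPI) members responding to light, 21 to 24 and 15 to 16 for DPI alone, 15 to 20 and 6 to 8 for the drop by light interaction (local and systemic), and 12 to 15 and 9 to 11 for the leaf by light interaction (water and DPI). The labels do not say what a replicate number marks, and the numbers were not taken as pairs, since no correlation of deviations between same-numbered libraries exceeded 0.1 (−0.028 to 0.048 within a leaf, −0.041 to 0.089 between leaves). Within a leaf 19 of 24 libraries nonetheless correlated best with their own number, a hint from the data that numbers share something. With the replicate block the light responses gave 19, 13, 23 and 12 members in the order above, DPI alone 24 and 15, the drop by light interaction 18 and 7, and the leaf by light interaction 12 and 11. The block was set by replicate number within each leaf and did not link local with systemic libraries. Its counts for the leaf by light interaction therefore do not check a pairing between the leaves. For the named members the block added the rises of WRKY48 in the systemic leaf with water (adjusted p 0.0376) and in the local leaf with DPI (adjusted p 0.0268) and changed no other call. For the 59 single values followed, the libraries whose omission ended a call stand beside each above. In all, 38 of the alternative values no longer passed the threshold and 10 newly passed it. Causes were not tested. WRKY62 was over the floor in 19 of 24 libraries.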
